A study of Mus musculus with 8 samples.

Results

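The transcripts of the tumour suppressor p53 (gene Trp53) and of 9 genes that p53 is known to activate were compared between 2 groups of leukaemic mouse spleens. The genes were found by their symbols in the GENCODE M21 annotation, and all 10 were present among the 54018 gene identifiers of the table. The series holds 8 RNA libraries, made from mononuclear cells of the spleens of C57BL/6 mice with leukaemia. The first group (called knockdown) has the genotype Kdm1aKD;Eµ-TCL1A, a doxycycline-inducible knockdown of the histone demethylase gene Kdm1a on top of the Eµ-TCL1A transgene, with doxycycline given once the mice were leukaemic (4 libraries, replicates 1, 2, 4 and 5). The second group (called control) has the genotype Eµ-TCL1A alone (4 libraries, replicates 1 to 4). Both groups thus carry the TCL1A transgene, which drives expansion of CD5-positive B cells and is used as a model of chronic lymphocytic leukaemia. The labels give neither the animals' ages nor the promoter of the knockdown construct. They do not say whether control mice received doxycycline, and they do not tie a library to 1 animal, so the tests measure the spread between these libraries.

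p53 is a transcription factor that is kept scarce by the ubiquitin ligase MDM2 and is stabilised after DNA damage or other stress, so its activity is set mainly at the protein level. Active p53 binds pairs of a short consensus decamer near its target genes and raises, among others, the cell cycle inhibitor p21 (gene Cdkn1a), its own inhibitor Mdm2, the sestrins that restrain mTORC1, and genes of apoptosis. In human chronic lymphocytic leukaemia, loss of this pathway is known for poor response to chemotherapy. KDM1A is also known to remove methyl groups from a lysine of the p53 protein, which lowers the activity of p53, and this is a question that RNA levels of the targets bear on.

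The promoter sequences of the members are shown because p53 would act through such sites. RefSeq start-site windows (GRCm38.p6, 250 bases before to 50 after a start site) were given for 8 of the 10 genes, in 11 windows. Trp53inp1 and Zmat3 had none. The consensus p53-binding decamer was searched as RRRCWWGYYY (R is A or G, W is A or T, Y is C or T), with no mismatch allowed. This consensus, which reads the same on both strands, was found in 7 of the 11 windows and in 8.36% of all 32851 windows of this length. A pair of decamers with a spacer of at most 13 bases was found in 1 of the 11 windows, that of Cdkn1a, and in 0.0731% of all windows. In the lines here the decamers are in capitals, with 30 bases on each side, 5′ to 3′ on the strand of the gene.
Cdkn1a (chr17:29090876-29090967, plus strand): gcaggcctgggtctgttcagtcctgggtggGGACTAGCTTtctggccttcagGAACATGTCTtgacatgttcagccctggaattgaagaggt
Mdm2 (chr10:117710905-117710974, minus strand): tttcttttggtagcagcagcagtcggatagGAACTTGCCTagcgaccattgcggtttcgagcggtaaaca
Ccng1 (chr11:40755432-40755501, minus strand): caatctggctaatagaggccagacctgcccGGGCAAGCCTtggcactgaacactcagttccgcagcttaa
Aen (chr7:78895907-78895976, plus strand): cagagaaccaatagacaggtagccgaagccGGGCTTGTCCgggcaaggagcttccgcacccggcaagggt
Sesn1 (chr10:41887236-41887305, plus strand): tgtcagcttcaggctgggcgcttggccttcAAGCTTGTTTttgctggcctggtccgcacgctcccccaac
Trp53 (chr11:69580254-69580323, plus strand): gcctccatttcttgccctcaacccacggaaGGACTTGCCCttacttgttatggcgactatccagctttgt
The Cdkn1a pair of exact matches begins 73 bases before the upstream of the annotated start sites, with a spacer of 12 bases, and lies 2863 bases before the downstream start site. Directly after its second decamer, tgacatgttc departs from the consensus in its first letter only and so was not marked. The marked pair is therefore not the only possible pairing of these stretches. The decamers of Mdm2, Ccng1, Sesn1 and Trp53 begin 186, 185, 173 and 75 bases before a start site. That of Aen is shared by both of its windows and begins 121 bases before the downstream start site. No decamer was found in the windows of Sesn2 and Phlda3. A match describes these letters and is not a binding site, and genes known as p53 targets were chosen here.

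Levels are in FPKM, that is, fragments divided by transcript length in kilobases and by library size. From the steps between low values the libraries held an estimated 37200000 to 43700000 fragments, and a single fragment of a transcript 1 kilobase long counted for 0.0229 to 0.0269 FPKM. Kdm1a had 20.2, 21.04, 15.5 and 15.6 FPKM in knockdown replicates 1, 2, 4 and 5, against 24.2, 21.2, 24.1 and 31.1 FPKM in control replicates 1 to 4. The knockdown libraries were all below the controls, at 71.9% of the control mean (two-sided exact permutation p = 0.0286, the smallest that 70 assignments allow; limma adjusted p = 0.223). The B cell marker Cd79a was abundant in every library. Knockdown replicate 4 stood apart, with 29416 FPKM summed over 10 erythroid markers against 918 to 2549 FPKM in the other 3 knockdown libraries and 2896 to 7886 FPKM in the controls. Its sum over 8 B cell markers was 1245 FPKM, against 3089 to 3265 FPKM in the other 3 knockdown libraries and 3521 to 4188 FPKM in the controls. None of the markers of either list was at 0 in all libraries. The erythroid list was not uniform. Klf1, Epor and Car1 were higher in every knockdown library than in any control. Klf1 had 26.6 to 215 FPKM in knockdown and 14.0 to 20.6 FPKM in control libraries, and Epor 10.9 to 71.6 and 4.76 to 6.30 FPKM. The globin genes Hbb-bs and Hbb-bt were lower in knockdown replicates 1, 2 and 5 than in any control (Hbb-bs 319 to 717 against 1527 to 4806 FPKM). Xist marked the 4 knockdown libraries and control replicate 1 as female, and Ddx3y the other 3 controls as male, so group and sex are nearly the same split. In such bulk samples, fewer cells of a type and less RNA per cell cannot be told apart.

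None of the 10 genes differed between the groups past the threshold. In the limma fit on log2(FPKM + 1) over 12890 genes, adjusted p-values of the members lay between 0.291 and 0.985, and 0 of 10 reached an unadjusted p under 0.05. Over all genes 1.74% were called, 1.63% as higher and 0.109% as lower in knockdown, and 19.2% had an unadjusted p under 0.05 (15.8% higher and 3.41% lower in knockdown). With a background of 1.74%, a list of this size with no call is not a result about these genes. Knockdown and control values overlapped in all 10 genes, while 13.1% of all genes had groups without overlap. All 10 members had passed the filter of 1 FPKM in at least 4 libraries.

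**Figure D1:**
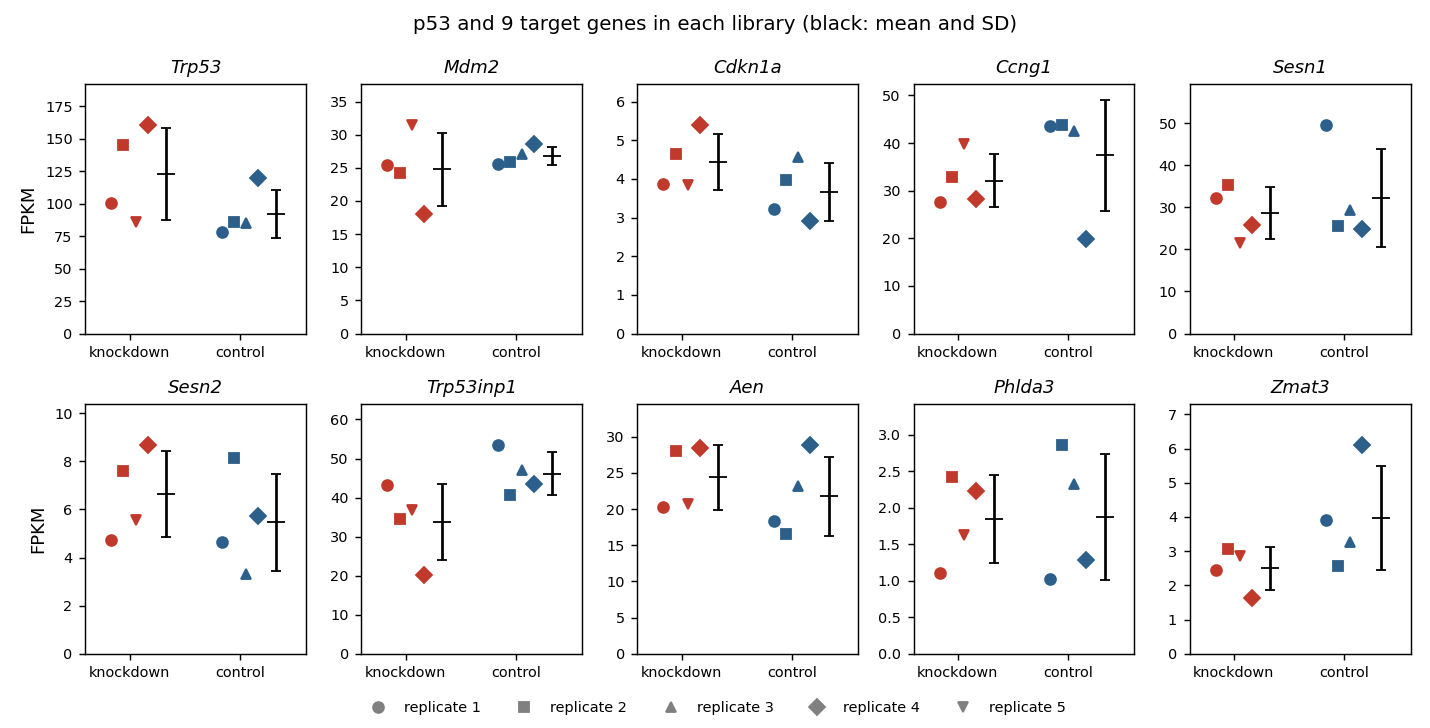
FPKM (vertical axes, linear from 0) of Trp53 and 9 target genes in the 4 knockdown libraries (red) and 4 control libraries (blue), with the symbol shape giving the replicate number and the group mean ± SD in black. The groups overlap in every panel, and knockdown replicate 4 holds the highest Trp53 value (160.5 FPKM) and the lowest Trp53inp1 value (20.2 FPKM).

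Trp53 itself (ENSMUSG00000059552, chr11:69580359-69591873, plus strand, GRCm38) was the most abundant of the 10. It had 100.5, 145, 160.5 and 85.7 FPKM in knockdown replicates 1, 2, 4 and 5, against 78.3, 86.2, 85.3 and 119.5 FPKM in control replicates 1 to 4. Knockdown replicates 2 and 4 lay above every control, and knockdown replicates 1 and 5 lay among the controls. The means were 123 ± 35.6 FPKM in knockdown and 92.4 ± 18.5 FPKM in control libraries (SD, n = 4 each). On the log2 scale the groups differed by 0.38 (95% interval −0.16 to 0.92, limma adjusted p = 0.401; exact permutation p = 0.2). The processed pseudogene Trp53-ps was listed at 0 in all libraries.

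Mdm2 (ENSMUSG00000020184, chr10:117688875-117710758, minus strand) encodes the ligase that p53 induces and that in turn degrades p53. It had 25.5, 24.2, 17.97 and 31.4 FPKM in knockdown replicates 1, 2, 4 and 5, against 25.5, 25.9, 27.1 and 28.6 FPKM in control replicates 1 to 4. The knockdown libraries enclosed the narrow control range, with replicate 4 lowest and replicate 5 highest of all 8. The log2 difference was −0.13 (95% interval −0.55 to 0.28, limma adjusted p = 0.708), and its sign turned without knockdown replicate 4 (0.0041). Within a library, the ratio of Mdm2 to Trp53 FPKM was 0.253, 0.166, 0.112 and 0.367 in knockdown replicates 1, 2, 4 and 5, against 0.326, 0.300, 0.318 and 0.239 in control replicates 1 to 4. This ratio, which does not depend on library scaling, was spread more widely in knockdown libraries and overlapped between the groups. It was computed after the values were seen and is given as a description.

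Of the cell cycle genes, Cdkn1a (ENSMUSG00000023067, chr17:29090976-29100727, plus strand) encodes p21, an inhibitor of cyclin-dependent kinases and the best known p53 target. Its level was low, at 3.87, 4.65, 5.39 and 3.84 FPKM in knockdown replicates 1, 2, 4 and 5, against 3.23, 3.96, 4.56 and 2.91 FPKM in control replicates 1 to 4. Knockdown replicates 2 and 4 lay above the highest control, and the others lay among the controls. The log2 difference was 0.23 (95% interval −0.19 to 0.64, limma adjusted p = 0.519). An antisense-strand gene overlaps Cdkn1a, and the use of strand is not given in the sources used here. Ccng1 (ENSMUSG00000020326, chr11:40748552-40755311, minus strand) encodes cyclin G1, which recruits a phosphatase to MDM2. It had 27.6, 32.8, 28.2 and 39.7 FPKM in knockdown replicates 1, 2, 4 and 5, against 43.5, 43.7, 42.5 and 19.8 FPKM in control replicates 1 to 4. All knockdown values lay below the first 3 controls, and control replicate 4 lay below every knockdown library. The log2 difference was −0.16 with all libraries (95% interval −0.77 to 0.44, limma adjusted p = 0.760). It was −0.38 without both replicate 4 libraries, where limma's adjusted p was 0.303.

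The sestrins bind the GATOR2 complex and restrain mTORC1, the growth-promoting kinase complex. Sesn1 (ENSMUSG00000038332, chr10:41809935-41908424, plus strand) had 32.1, 35.3, 25.7 and 21.5 FPKM in knockdown replicates 1, 2, 4 and 5, against 49.5, 25.5, 29.2 and 24.9 FPKM in control replicates 1 to 4. Control replicate 1 was the highest and the other 7 libraries lay between 21.5 and 35.3 FPKM. The log2 difference was −0.13 (95% interval −0.70 to 0.43), and its sign turned without control replicate 1 (0.085). Sesn2 (ENSMUSG00000028893, chr4:132492032-132510501, minus strand), which encodes a leucine sensor, had 4.75, 7.58, 8.66 and 5.58 FPKM in knockdown replicates 1, 2, 4 and 5, against 4.66, 8.12, 3.33 and 5.74 FPKM in control replicates 1 to 4. Its values were interleaved between the groups (log2 difference 0.26, 95% interval −0.33 to 0.86, limma adjusted p = 0.601). Both sestrin genes overlap 1 other annotated gene on their own strand, so their values are less certain.

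Of the genes tied to cell death and stress, Trp53inp1 (ENSMUSG00000028211, chr4:11156431-11174379, plus strand) encodes a stress-induced partner of p53 and of autophagy proteins. It had 43.3, 34.6, 20.2 and 36.8 FPKM in knockdown replicates 1, 2, 4 and 5, against 53.3, 40.6, 47.1 and 43.5 FPKM in control replicates 1 to 4. Only knockdown replicate 1 lay above any control, and replicate 4 was lowest. The means were 33.7 ± 9.73 FPKM in knockdown and 46.2 ± 5.49 FPKM in control libraries (SD, n = 4 each). The log2 difference of −0.48 (95% interval −1.01 to 0.04) had the smallest p of the members (limma adjusted p = 0.291; exact permutation p = 0.0571). It was −0.29 without both replicate 4 libraries. Aen (ENSMUSG00000030609, chr7:78895854-78911209, plus strand) encodes an exonuclease that takes part in apoptosis. It had 20.3, 28.0, 28.5 and 20.7 FPKM in knockdown replicates 1, 2, 4 and 5, against 18.3, 16.6, 23.2 and 28.8 FPKM in control replicates 1 to 4. High and low libraries occurred in both groups (log2 difference 0.17, 95% interval −0.31 to 0.65). Phlda3 (ENSMUSG00000041801, chr1:135766119-135769136, plus strand) encodes a pleckstrin-homology protein that competes with AKT for membrane lipids. It was the least abundant, at 1.11, 2.42, 2.24 and 1.63 FPKM in knockdown replicates 1, 2, 4 and 5, against 1.03, 2.85, 2.33 and 1.28 FPKM in control replicates 1 to 4. Its difference was 0.01 with a 95% interval of −0.57 to 0.59 on the log2 scale.

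Zmat3 (ENSMUSG00000027663, chr3:32334792-32366014, minus strand) encodes a zinc finger protein that binds RNA. It had 2.45, 3.06, 1.62 and 2.85 FPKM in knockdown replicates 1, 2, 4 and 5, against 3.91, 2.58, 3.26 and 6.09 FPKM in control replicates 1 to 4. Knockdown replicate 4 was the lowest and control replicate 4 the highest of all 8. The means were 2.50 ± 0.636 FPKM in knockdown and 3.96 ± 1.52 FPKM in control libraries (SD, n = 4 each). The log2 difference was −0.48 (95% interval −1.03 to 0.08, limma adjusted p = 0.320), and −0.16 without both replicate 4 libraries. Because 1 was added to the FPKM, fold changes of scarce genes are understated.

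**Figure D2:**
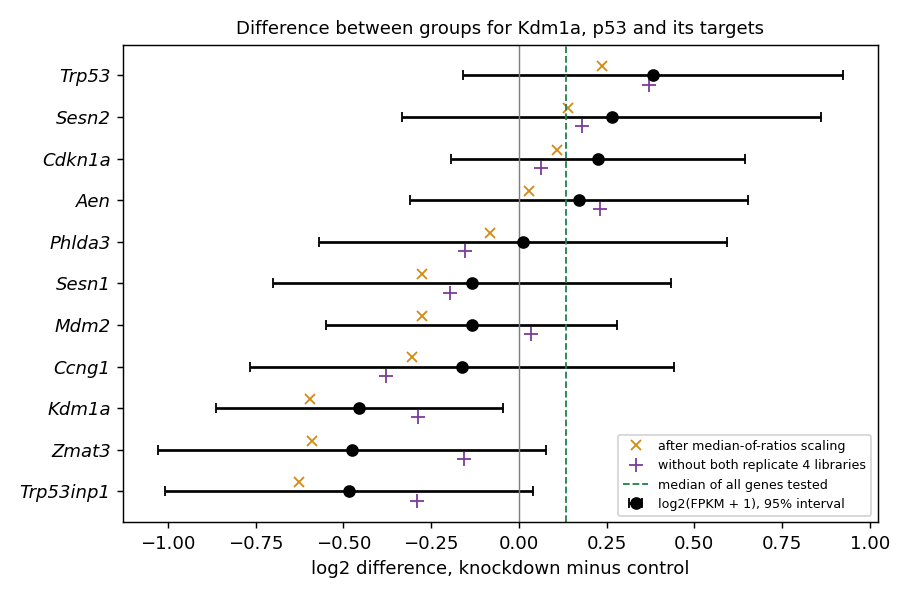
Log2 differences of log2(FPKM + 1), knockdown minus control (horizontal axis), for the 10 genes and Kdm1a, with 95% intervals of the limma fit (black), the value after median-of-ratios scaling (crosses) and the value without both replicate 4 libraries (plus signs). All 10 members' intervals include 0, and the dashed line is the median of all 12890 genes, 0.13.

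The fit without covariates bounds the differences on its own scale, which for scarce genes understates changes in FPKM. On the log2(FPKM + 1) scale the intervals of the members ran from a fold of 0.490 (lower limit of Zmat3) to one of 1.90 (upper limit of Trp53). On that scale a rise of any member by 2-fold lay outside its interval, whereas a fall to 0.5 of the control level lay inside the intervals of Zmat3 and Trp53inp1. Of the 10, 5 had a positive and 5 a negative log2 difference (median −0.06), while 63.7% of all genes had a positive one, with a median of 0.13. Relative to that median, 4 members lay above and 6 below. After median-of-ratios scaling 4 members were positive and after quantile normalization 3, and Phlda3 turned negative under both and Aen under quantile normalization. With sex as a covariate the group difference is that between the knockdown mean and control replicate 1 alone. It was then 0.60 for Trp53, −0.70 for Trp53inp1 and −0.79 for Sesn1, none past the threshold.

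By level the order in knockdown libraries was Trp53, Trp53inp1, Ccng1, Sesn1, Mdm2, Aen, Sesn2, Cdkn1a, Zmat3 and Phlda3. The order in control libraries was the same except that Zmat3 stood before Cdkn1a. In both groups Trp53 was separate from the next gene, and Aen, the sixth, from Sesn2. The ranges of the second to the sixth gene each overlapped that of their neighbour. Among all 12890 genes ranked by mean FPKM, Trp53 was at rank 730, Mdm2 at rank 3865, Cdkn1a at rank 10015 and Phlda3 at rank 11683. The transcript of p53 was thus among the abundant ones, and those of p21 and PHLDA3 among the scarce ones.

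**Figure D3:**
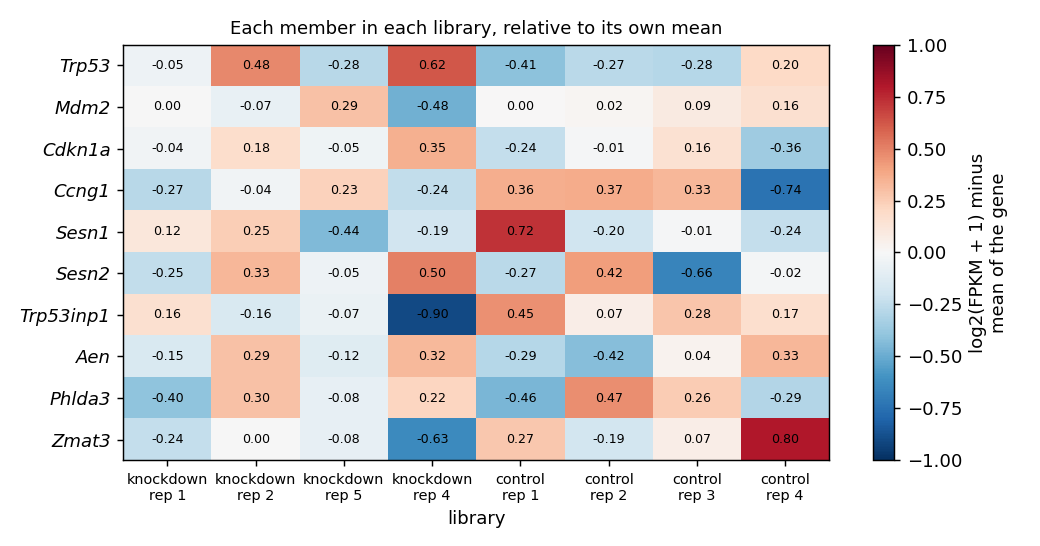
Each cell gives log2(FPKM + 1) of a gene (rows) in a library (columns, knockdown left of control) minus the mean of that gene over the 8 libraries, on a colour scale from −1 to 1. Trp53inp1 in knockdown replicate 4 is the darkest blue and Zmat3 in control replicate 4 the darkest red, and in every row at least 1 group has libraries on both sides of the mean.

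The members did not move as a block within a library either. Knockdown replicate 4 held the highest value of 3 members (Trp53, Cdkn1a and Sesn2) and the lowest of 3 (Mdm2, Trp53inp1 and Zmat3). Control replicate 4 held the highest of 2 (Aen and Zmat3) and the lowest of 2 (Cdkn1a and Ccng1), and control replicate 1 the highest of 2 and the lowest of 2. The median absolute deviation of the 10 genes from their own means was 0.42 on the log2 scale in knockdown replicate 4, and 0.10 to 0.32 in the other 7 libraries. That library also had the highest erythroid and the lowest B cell marker sums given above. With the erythroid marker level as a covariate, 0 of 10 members passed and the smallest adjusted p was 0.0777, for Trp53inp1. Of all 12890 genes 1038 were called in that fit.

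Further genes known to be activated by p53 were mostly not past the threshold either. Of 42 listed, 34 were tested, and 2 rose and 0 fell, against 1.63% and 0.109% of all genes. A positive log2 difference was found for 25 of the 34, against 63.7% of all genes (median 0.22, against 0.13 over all genes). After median-of-ratios scaling 20 of the 34 were positive, and after quantile normalization 18. Groups without overlap were found for 7 of the 34, all higher in knockdown, against 11.2% of all genes. The 7 include Gls2 and Dram1, which passed the filter only through the knockdown libraries, so their lack of overlap was fixed in advance. Steap3, which encodes a ferrireductase of the transferrin cycle that is also prominent in red cell precursors, had 8.56, 25.1, 46.8 and 14.1 FPKM in knockdown replicates 1, 2, 4 and 5, against 3.15, 2.14, 3.47 and 2.56 FPKM in control replicates 1 to 4. Every knockdown library lay above every control (log2 difference 2.44 ± 0.43 (SE), limma adjusted p = 0.0279). Gls2, a mitochondrial glutaminase gene, had 1.95, 4.87, 9.26 and 1.98 FPKM in knockdown replicates 1, 2, 4 and 5, against 0.189, 0.247, 0.440 and 0.356 FPKM in control replicates 1 to 4. Gls2 reached 1 FPKM in the knockdown libraries only. It passed the filter through that group alone, so its lack of overlap was fixed in advance and its call is not free of that choice. Its log2 difference was 1.88 ± 0.38 (SE; limma adjusted p = 0.0423). Knockdown replicate 4, the library with the highest erythroid sum, was highest for both Steap3 and Gls2. Knockdown replicate 1, with the lowest erythroid sum, also lay above every control for both. In that library the erythroid markers Klf1, Epor and Car1 were above every control too, and the globin genes Hba-a1, Hbb-bs and Hbb-bt below. What erythroid cells contribute to either gene was not tested. The erythroid covariate averaged log2(FPKM + 1) over all 10 markers of the list. With the erythroid marker level as a covariate the differences were 2.35 for Steap3 and 1.80 for Gls2 (adjusted p = 0.00090 and 0.00078). With the B cell marker level as a covariate they were 1.85 and 1.36, not past the threshold (adjusted p = 0.0580 and 0.106). Without both replicate 4 libraries the differences were 2.005 and 1.53, no longer past the threshold (adjusted p = 0.0585 and 0.0715). Without knockdown replicate 4 alone both still passed (adjusted p = 0.0206 for Steap3 and 0.0319 for Gls2). Neither passed without knockdown replicate 2 (adjusted p = 0.105 and 0.146), nor without any 1 of the 4 controls (0.0682 to 0.0997 for Steap3 and 0.101 to 0.122 for Gls2). The size for Gls2 depended on the pseudocount, at 3.24 with 0.1 and 0.78 with 5 added to the FPKM. The call of Gls2 was also lost under both scalings (adjusted p = 0.0648 and 0.0875). Markers of other blood cells also differed with the group. The sum over 6 megakaryocyte markers was 17.6 to 53.6 FPKM in knockdown and 5.63 to 13.3 FPKM in control libraries. Of the 4 tested 2 rose, against 1.63% of all genes. Ppbp of that list lay the other way, at 0.721 to 1.11 FPKM in knockdown and 1.02 to 2.98 FPKM in control libraries. The sum over 4 progenitor markers was 15.9 to 39.0 FPKM in knockdown and 4.36 to 8.95 FPKM in control libraries. Of the 3 tested 2 rose, against 1.63% of all genes. Sox4 of these markers reached 1 FPKM in the knockdown libraries only and entered the test through them alone. The sum over 7 neutrophil markers was 25.0 to 205 FPKM in knockdown and 67.1 to 451 FPKM in control libraries. Of the 7 tested 3 fell, the granule protein genes Camp, Ngp and Ltf, against 0.109% of all genes. Camp reached 1 FPKM in the controls only and entered the test through them alone. Mpo and Elane of the same list lay the other way without a call. Mpo had 6.91 to 34.4 FPKM in knockdown and 1.17 to 6.07 FPKM in control libraries, and Elane 4.13 to 26.7 and 0.859 to 4.75 FPKM. The part of all these markers in these results, and in those of the lists that follow, was not tested.

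Of the remaining targets, the autophagy regulator gene Dram1 had 1.502 ± 0.457 FPKM in knockdown and 0.639 ± 0.158 FPKM in control libraries, and the spindle gene Ckap2 14.3 ± 9.27 and 5.65 ± 0.790 FPKM (SD, n = 4 each). Their groups did not overlap, but limma's adjusted p-values were 0.141 and 0.163. For Dram1, which reached 1 FPKM in the knockdown libraries only, the filter fixed this lack of overlap. Of the apoptosis genes of the BCL2 family, Bax had 89.5 ± 13.3 FPKM in knockdown and 77.6 ± 11.3 FPKM in control libraries, Bbc3 (PUMA) 9.72 ± 1.99 and 7.82 ± 1.149 FPKM, and Pmaip1 (NOXA) 5.97 ± 1.66 and 4.44 ± 2.03 FPKM. None of these 3 passed, and the 95% interval of the log2 difference was −0.20 to 0.61 for Bax, −0.15 to 0.70 for Bbc3 and −0.32 to 1.18 for Pmaip1. The damage-inducible Gadd45a had 17.7 ± 15.3 FPKM in knockdown libraries and 5.31 ± 0.776 FPKM in controls, without overlap (limma adjusted p = 0.164). These 4 genes were singled out after their values were seen. Targets below the filter included Tnfrsf10b, Perp, Eda2r, Trp53cor1, Gdf15, Ak1 and Thbs1, none of these above 3.02 FPKM in any library. Groups without overlap, higher in knockdown, were seen for Thbs1 (means 1.92 and 0.390 FPKM), Ak1 (0.937 and 0.0962) and Eda2r (0.131 and 0.0194). The others named here overlapped, and none was tested. Of all genes tested, 11.2% had groups without overlap in that direction.

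Among 21 genes that control p53 or are its paralogues, 17 were tested and 0 rose or fell. An unadjusted p under 0.05 was found for 2, both higher, against 15.8% of all genes in that direction. The median log2 difference was −0.11, with 8 positive and 9 negative, and it was 0.13 without both replicate 4 libraries. The checkpoint kinase genes Chek1 and Chek2 had 14.0 ± 6.73 and 15.1 ± 7.29 FPKM in knockdown libraries, and 7.29 ± 1.07 and 9.42 ± 0.966 FPKM in controls (SD, n = 4; limma adjusted p = 0.197 and 0.331). Cop1, a ubiquitin ligase gene, had 61.0 ± 16.2 FPKM in knockdown and 40.7 ± 10.4 FPKM in control libraries, and the acetyltransferase gene Kat5 22.2 ± 4.30 and 16.4 ± 2.63 FPKM. Neither passed (adjusted p = 0.247 and 0.292). The paralogues Trp63 and Trp73 stayed at or under 0.0830 FPKM. Below the filter were also Cdkn2a and Ppp1r13l.

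Cell cycle genes that p53 is known to lower through p21 and the DREAM repressor complex lay higher in knockdown libraries without a call. All 12 had a positive log2 difference, also after either scaling, and their median was 0.91 against 0.13 over all genes. Of these 12 genes 0 passed the adjusted threshold, 9 had an unadjusted p under 0.05 (15.8% of all genes did, in that direction), and 7 had groups without overlap, all higher in knockdown, as 11.2% of all genes had. Ccnb1, the mitotic cyclin B1 gene, had 18.7, 32.2, 104 and 29.3 FPKM in knockdown replicates 1, 2, 4 and 5, against 12.6, 13.5, 13.6 and 11.4 FPKM in control replicates 1 to 4 (limma adjusted p = 0.130). Knockdown replicate 4 was far above the rest. Top2a had 137 ± 71.1 FPKM in knockdown and 69.0 ± 13.5 FPKM in control libraries, Bub1 15.5 ± 9.58 and 7.05 ± 0.805 FPKM, and Cdk1 110.3 ± 82.8 and 42.0 ± 11.4 FPKM (SD, n = 4 each). The median of the 12 was 0.57 without both replicate 4 libraries and 0.41 with the B cell marker level as a covariate, and 0 passed in either. With the erythroid marker level as a covariate the median was 0.83 and 9 of 12 passed. In that fit 1038 of all 12890 genes were called, 927 as higher in knockdown, against 224 without the covariate. Of the DREAM complex and retinoblastoma family, 0 of 11 passed and the median was 0.35. Rbl1 (p107) had 18.6 ± 3.68 FPKM in knockdown and 12.2 ± 0.954 FPKM in control libraries, and Tfdp1 72.7 ± 29.3 and 41.1 ± 3.99 FPKM (adjusted p = 0.145 and 0.170). Rbbp4 had 51.7 ± 19.1 and 33.8 ± 5.76 FPKM, and E2f4 89.0 ± 34.6 and 61.9 ± 11.5 FPKM (adjusted p = 0.265 and 0.371).

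**Figure D4:**
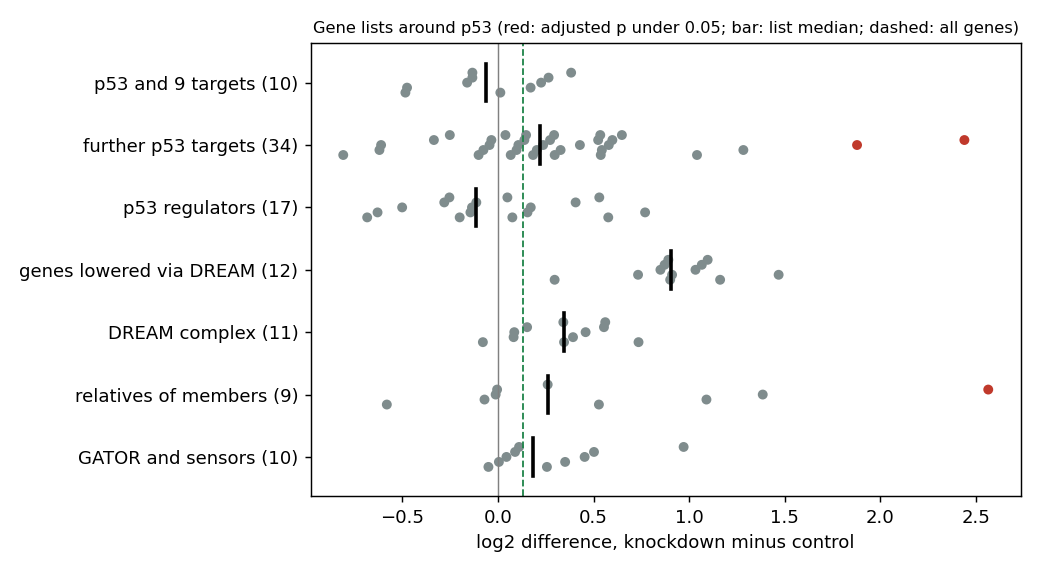
Log2 differences, knockdown minus control (horizontal axis), of the tested genes of each list (number in brackets), with genes past an adjusted p of 0.05 in red, the list median as a black bar and the median of all genes as a dashed line. The 10 members have a median of −0.06 and no red point, and the 12 genes lowered through DREAM lie to the right of 0.

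Among relatives of the members, 9 of 10 were tested, and 1 rose and 0 fell, against 1.63% and 0.109% of all genes. The 1 was Phlda2, an imprinted gene best known from the placenta and a relative of Phlda3. It had 4.37, 8.45, 14.8 and 3.74 FPKM in knockdown replicates 1, 2, 4 and 5, against 0.379, 0.341, 0.425 and 0.171 FPKM in control replicates 1 to 4. Phlda2 reached 1 FPKM in the knockdown libraries only and passed the filter through them alone. That every knockdown library was above every control was therefore fixed in advance. The log2 difference was 2.57 ± 0.35 (SE; limma adjusted p = 0.0132). Without both replicate 4 libraries it was 2.17 and still passed (adjusted p = 0.0250). It did not pass without knockdown replicate 2 or control replicate 3 or 4 (adjusted p = 0.0566, 0.0504 and 0.0710). Its log2 difference was 4.04 with a pseudocount of 0.1 and 1.19 with one of 5. Phlda1, another relative, had 3.37 ± 1.93 FPKM in knockdown and 0.558 ± 0.141 FPKM in control libraries (adjusted p = 0.0549). It too reached 1 FPKM in the knockdown libraries only, which fixed its lack of overlap in advance. Of all genes tested, 11.2% lay higher in knockdown without overlap. Phlda3, the p53 target of the family, had 1.85 ± 0.598 and 1.87 ± 0.864 FPKM. The difference between these relatives was not tested. The p21 relative Cdkn1b (p27) had 47.2 ± 3.79 FPKM in knockdown and 49.6 ± 1.98 FPKM in control libraries, and the cyclin gene Ccng2 26.0 ± 5.15 and 25.9 ± 4.27 FPKM. The third sestrin gene, Sesn3, had 17.4 ± 8.59 and 24.5 ± 10.5 FPKM (adjusted p = 0.497). Isg20, a relative of Aen, had 119.7 ± 118.9 and 41.5 ± 9.86 FPKM, and Zmat2 40.2 ± 11.8 and 27.6 ± 7.99 FPKM (adjusted p = 0.291 and 0.298).

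Of the GATOR complexes and amino acid sensors, on which the sestrins act or which work beside them, 0 of 10 passed. The median log2 difference was 0.18, and 9 of 10 were positive, but 5 after either scaling. Castor1, an arginine sensor gene, had 4.56 ± 2.78 FPKM in knockdown and 1.61 ± 0.222 FPKM in control libraries (limma adjusted p = 0.151). Wdr59, a GATOR2 subunit gene, had 5.22 ± 0.669 and 3.40 ± 0.510 FPKM (adjusted p = 0.165). In these 2 of the 10 genes every knockdown library lay above every control, as in 11.2% of all genes. Seh1l and Mios, also of GATOR2, had 24.5 ± 5.17 and 9.05 ± 1.21 FPKM in knockdown, and 17.6 ± 3.11 and 6.93 ± 1.35 FPKM in control libraries (adjusted p = 0.256 and 0.324).

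The genes whose profiles over the 8 libraries were most like that of Trp53 were Mgat4b, Rhno1 and Noc4l. The measure was the root mean square difference of log2(FPKM + 1) after each gene was centred on its own mean, 0.059, 0.066 and 0.075 for these, against a median of 0.49 over all genes. For Cdkn1a they were Nol12, Tmem208 and Snf8, at 0.053, 0.053 and 0.060 against a median of 0.37. None of the 6 was on a list used here.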

How the data were processed

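Polyadenylated RNA of splenic mononuclear cells was isolated and sequenced (Illumina NovaSeq), as the labels' protocols state. The authors deposited 1 table of FPKM values with 1 column per library. CASAVA and Cufflinks are named in the submitters' processing notes. No source used here gives the aligner, the authors' genome build, their annotation or whether strand was used. GENCODE M21 (GRCm38) named 53865 of 54018 identifiers, and gene coordinates are from it. Depth was estimated from single-transcript genes of at least 1500 bases, whose low values lay within 5% of a whole multiple of 1 fragment in 86.3% to 98.4% of cases.

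Tested were genes that reached 1 FPKM in 4 or more of the 8 libraries, on log2(FPKM + 1), knockdown (n = 4) against control (n = 4), with limma 3.58.1 (mean-variance trend, two-sided, R 4.3.3), p-values adjusted by Benjamini-Hochberg over all 12890 and called under 0.05. The fit was tested on simulated data. No covariate was used. Exact permutation tests were two-sided over 70 assignments.

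The members and gene lists were chosen with earlier results of these data known. Named were the members, Kdm1a, the up to 4 list genes of smallest p or all past the threshold, and the 3 nearest profiles of Trp53 and Cdkn1a. Other list genes and markers given with values (Bax, Bbc3, Pmaip1, Gadd45a, Cdkn1b, Ccng2, Sesn3, Trp63, Trp73 and the genes below the filter) were chosen after their values were seen. So were the single markers Klf1, Epor, Car1, the globin genes, Mpo, Elane and Ppbp. Alternatives changed the pseudocount, filter, scaling, test, covariates and libraries. Tables and figures were made in Python 3.11.15 (numpy 2.4.6, pandas 2.3.3; plots with matplotlib 3.10.9).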

Additional observations from a re-analysis of the deposited data

Results flagged for a closer look

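A sample far from the others of its group was found in 4 of 70 groups of 4 libraries (35 genes in 2 groups), where chance flags about 1 in 20. Ccng1 had 19.8 FPKM in control replicate 4 and 42.5 to 43.7 FPKM in the other controls. Ccnb1 had 104 FPKM in knockdown replicate 4 and 18.7 to 32.2 FPKM in the other knockdown libraries. Isg20 had 296 FPKM in knockdown replicate 4 and 39.2 to 83.1 FPKM in the other knockdown libraries. Tfdp1 had 47.1 FPKM in control replicate 4 and 38.5 to 39.6 FPKM in the other controls.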

How the results depend on the processing

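None of the members passed in any of the 21 alternatives (7 of 10 were tested at a mean of at least 5 FPKM, without Cdkn1a, Zmat3 and Phlda3), and the smallest adjusted p, 0.0777, was that of Trp53inp1 with the erythroid covariate. Trp53, Cdkn1a, Ccng1, Sesn2, Trp53inp1 and Zmat3 kept their sign wherever tested, but not their size: Trp53 ranged over 0.18 to 0.60, Cdkn1a 0.019 to 0.37, Sesn2 0.051 to 0.45, Ccng1 −0.44 to −0.066, Trp53inp1 −0.70 to −0.17 and Zmat3 −0.67 to −0.16. Aen turned to −0.0036 after quantile normalization. Mdm2 turned to 0.054 with the B cell covariate, 0.034 without both replicate 4 libraries and 0.0041 without knockdown replicate 4 (−0.25 to 0.0041 with 1 library left out). Sesn1 turned to 0.085 without control replicate 1 (−0.24 to 0.085 with 1 library left out). Phlda3 turned to −0.00081 with a pseudocount of 5, −0.082 and −0.15 after median-of-ratios and quantile scaling, −0.025 with array weights, −0.069 and −0.018 with the B cell and erythroid covariates, −0.15 without both replicate 4 libraries, and ranged over −0.14 to 0.17 with 1 library left out. The cause was not tested.

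Of all genes 224 were called. The number was 24 with a pseudocount of 5, 2 without a filter, 71 at a mean of at least 5 FPKM, 131 and 126 after median-of-ratios and quantile scaling, 761 with array weights, 87, 1038 and 2 with the B cell, erythroid and sex covariates, 120 without both replicate 4 libraries, and 8 to 333 with 1 library left out. Of the further p53 targets (2 called), 1 was called at a mean of at least 5 FPKM, where Gls2 was not tested, and after either scaling, 5 with the erythroid covariate, 0 with a pseudocount of 5, no filter, the B cell or sex covariate or without both replicate 4 libraries, and 0 to 2 with 1 library left out. Of the relatives (1 called), 2 were called with a pseudocount of 0.1 or array weights, 3 with the erythroid covariate, 0 with a pseudocount of 5, no filter or the sex covariate, 0 at a mean of at least 5 FPKM, where Phlda2 was not tested, and 0 to 2 with 1 library left out. With the erythroid covariate 9 genes lowered through DREAM and 1 each of the regulators, the DREAM complex and the GATOR list were called. Kdm1a was −0.53 to −0.35 on the log2 scale with 1 library left out, −0.29 without both replicate 4 libraries, −0.26 with array weights and −0.61 after quantile normalization. A block by replicate number left 0 genes called in all lists and over all genes. The shared numbers did not pair the libraries: same-numbered deviations correlated at 0.16, 0.047 and −0.12, and not every library correlated best with its own number. FPKM hold no counts, and the 4 libraries per group limit the precision.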
